A study of Bos taurus with 16 samples.

Results

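Whole blood of dairy cows after 60 days of an oral probiotic was compared with blood taken at day 0, on 8 of the 16 arrays of the study, 4 for each time. The study took 10 lactating female Holstein Friesian cows (Bos taurus), 5 per arm. The treated arm took by mouth a commercial pack with yeast culture (Saccharomyces cerevisiae), Enterococcus faecium, Lactobacillus acidophilus and products of Bacillus subtilis and Aspergillus oryzae, and the other arm took water. The probiotic group is blood of the treated arm at day 60. The day 0 group is labelled as the probiotic arm before supplementation, and whether its pool also held cows of the water arm was not settled by the labels. Blood of both groups stood without a stimulus at 37 °C for 30 min under 5% CO2. Cy3 labelling used 0.5 µg of RNA whose integrity number exceeded 7. RNA of a group's cows was pooled, so its 4 arrays are repeat hybridisations of 1 pool, and the p-values measure only the spread between repeat arrays, not between cows. There is no water-arm control within this contrast, so time and the product cannot be told apart. Each group also lay on 1 slide of its own, and slide and group cannot be told apart.

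Whole blood RNA comes from neutrophils, monocytes, lymphocytes, platelets and young red cells, so a pooled level reflects both how many cells of a type there were and how much RNA each held. These cannot be told apart here. MHC class II molecules are pairs of an alpha and a beta chain that B cells, monocytes and dendritic cells use to show peptides to helper T cells. CD74, the invariant chain, guards their groove until the peptide is loaded. In cattle these genes are named BOLA, and the BOLA-DQ genes are highly variable between animals and duplicated in some haplotypes. Immediate early genes such as FOS and DUSP1 are switched on within minutes of a stimulus or of handling of the blood.

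Markers of several blood cell types were present. At evenly hybridised positions of the array the T cell genes CD3E and CD247, the B cell genes CD79A and MS4A1, the monocyte gene CSF1R, the neutrophil gene CXCR2 and the haemoglobin gene HBB were well above background on all 7 arrays used there. Well above background is the scanner software's own call for a spot. Only part of each marker list was so measured there, with 11 of 29 T cell, 7 of 26 neutrophil and 3 of 31 erythroid genes. Of genes not expected in blood, 2 were tested there, PRSS2 and KRT8, and both were measured on all 7 arrays as well.

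The place of a spot on the array moved with its signal, and this touches every result. The spike-in E1A_r60_1 was printed at 32 positions. Whether equal amounts of it were added to each sample was not tested. Its 8 copies lying within 53 rows of the top or bottom of the 532 rows (edge rows) had median signals of 84819.5, 88364.8 and 76417.9 scanner units on day 0 replicates 1 to 3, 24286.2 on day 0 replicate 4, and 153252, 149050, 152034 and 163033 on the probiotic arrays. In rows 200 to 332 the median of 8 copies was between 47.4 and 97.2 units on the day 0 arrays and 58.7 on probiotic replicate 4, but 49358.9, 45859.3 and 53571.1 on probiotic replicates 1 to 3. Of these 8 copies, 3 read low on probiotic replicates 1 to 3 as well (43.4 to 172 units). In the rows between, the order was the other way: the median of 16 copies was 5031, 178 and 186 units on day 0 replicates 1 to 3 and 42.3, 12.4 and 13.1 on probiotic replicates 1 to 3.

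**Figure D1:**
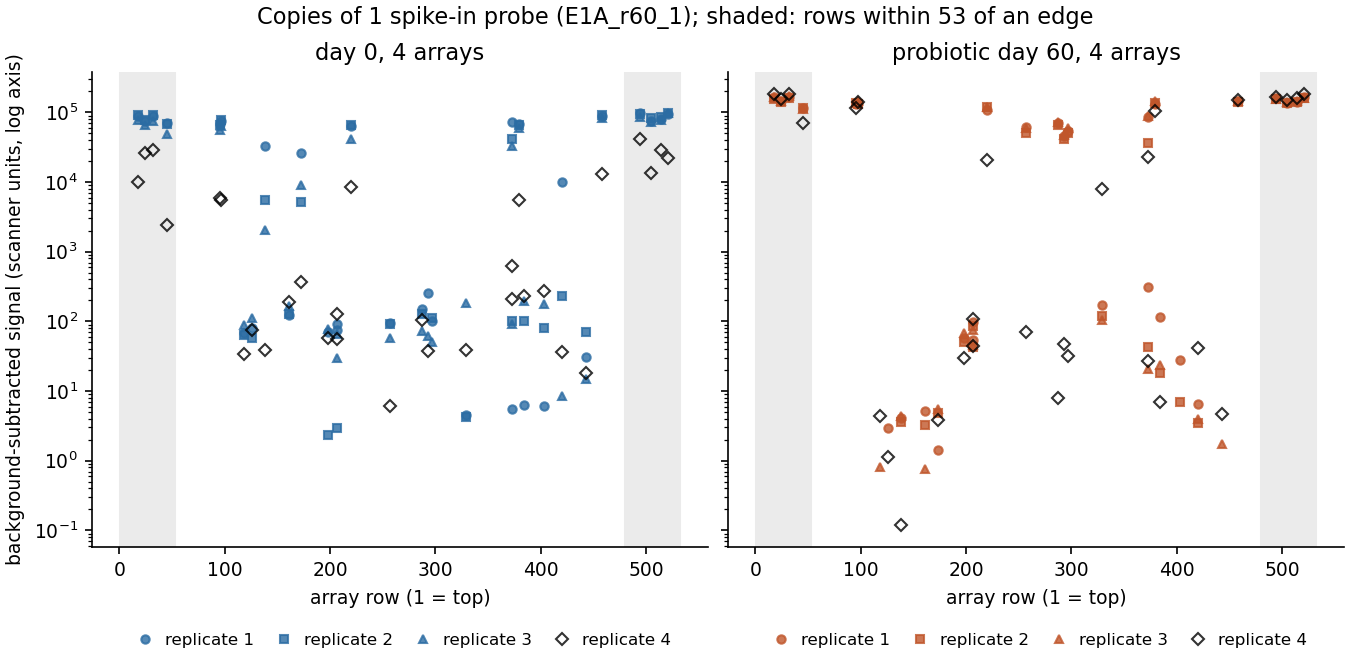
Background-subtracted signal in scanner units (log axis) of the 32 copies of the spike-in E1A_r60_1 against array row, 1 panel per group, 1 marker per array. Copies on the shaded edge rows were bright on all 8 arrays and lowest on day 0 replicate 4, while most copies in between fell by orders of magnitude. Of the 256 values, 12 at or below 0 are not drawn.

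Between 42.2% and 45.3% of the spots on edge rows were well above background on day 0 replicates 1 to 3, 17.6% on day 0 replicate 4, and between 57.1% and 62.4% on the probiotic arrays. Elsewhere the shares were 14.2% to 17.9%, 6.08% and 19.3% to 31.3%. Across 3240 probes on edge rows, day 0 replicates 1 to 3 had Spearman correlations of 0.990 to 0.994 with one another, and day 0 replicate 4 had 0.754 to 0.772 with them. Correlations were 0.962 to 0.998 within the probiotic group and 0.886 to 0.938 between it and day 0 replicates 1 to 3. Probes are not independent replicates, and these correlations run across them. The 3240 probes were well above background on day 0 replicates 1 to 3 and on every probiotic array, with no such condition on other arrays. That choice can lower the correlations of day 0 replicate 4 and of arrays of other groups. Day 0 replicate 4 also stands apart from its own group in its spike-in signal and its share of spots well above background. Results are given with it, without it or both. The untreated day 60 arrays correlated with the probiotic arrays at only 0.102 to 0.207 on these rows and were not set beside the results.

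**Figure D2:**
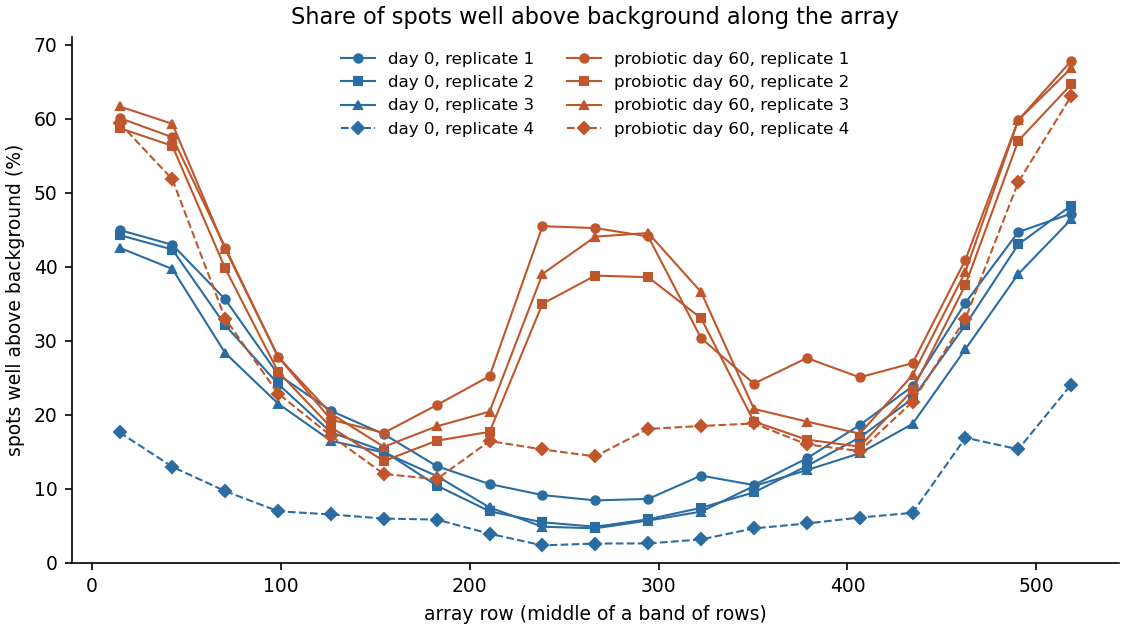
Percent of non-control spots well above background in bands of array rows, 1 line per array. All arrays were brightest at the top and bottom. Day 0 replicate 4 lay lowest in every band, and probiotic replicates 1 to 3 had a further peak in the middle rows, above the other 5 arrays.

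A place index was computed for each spot: the share of spots well above background in a window of 27 rows by 13 columns around it, divided by that share in the outermost 27 rows, taken on the array where it was lowest (day 0 replicate 4 left out). Spots with an index of at least 0.8 are called even positions. They held 10448 of the 43803 spots, and 82.7% of the spots on edge rows. This index was added after the data had been seen.

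With all spots and all 8 arrays, 8388 genes were tested and 684 were called (8.15%), 116 higher (1.38%) and 568 lower (6.77%) at day 60. A gene was called at a Benjamini-Hochberg adjusted p under 0.05 in limma and a fold of at least 2. Only 2143 genes had a probe well above background on all 8 arrays, and 223 of these were called (10.4%), 37 higher (1.73%) and 186 lower (8.68%). Without day 0 replicate 4, 1785 of 8745 genes were called (20.4%), and 720 of the 5576 measured on all 7 arrays (12.9%). The calls lay unevenly on the array. Where the index was under 0.5, 54 of 266 measured genes were called lower and 0 higher, with a median log2 change of -1.04. At even positions, 35 of 1620 were called higher and 96 lower, with a median of 0.07. For 204 genes called lower, the probe was well above background on every day 0 array but not on every probiotic array. All 204 lay where the index was under 0.5.

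The 12 largest measured falls over the whole array included CYTH2, ACTB, PRDM15, CORO2B, STRN3, LRFN4, LRCH4, CHRD, SLC34A1, PCSK7 and KRT35, and 11 of the 12 were measured where the index was 0.06 to 0.34. ACTB, the cytoskeletal beta actin, had log2 levels of 4.53, 2.90, 1.93 and 0.20 on the day 0 arrays and -0.87, -1.18, -2.50 and -3.16 on the probiotic arrays, and the arrays of a single pool spanned several log2 units. A level is the log2 of the background-subtracted signal over the array's 75th percentile among probes well above background on all arrays of the fit. The 6 largest bounds on a fall, among them NRAP, PPP6R1, TMEM82, NSF and RHBDL1, all lay where the index was at most 0.18. NRAP's probe read 1.91, 1.59, 1.37 and 2.96 on day 0 and was not well above background on any probiotic array. Of the 3 bounds on a rise, TALDO1 and CARD19 lay at an index of 0.00 and 0.04 and BOLA-DQA5 at 1.02. The part of place in these changes was not tested gene by gene, so the results that follow rest on edge rows and even positions.

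On edge rows with all 8 arrays, 225 of 4052 genes were called (5.55%). Of the 1304 measured on every array, 110 were called (8.44%), 25 higher (1.92%) and 85 lower (6.52%). With the replicate number as a replicate block, 22 genes were called, 10 of them measured on every array. Without day 0 replicate 4, 569 of 4101 genes were called (13.9%). Of the 3006 measured on all 7 arrays, 284 were called (9.45%), 90 higher (2.99%) and 194 lower (6.45%), and their median change was 0.06.

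A few genes of MHC class II were called higher on edge rows and at even positions. At even positions without day 0 replicate 4, 364 of 3833 genes measured on all 7 arrays were called (9.5%), 97 higher (2.53%) and 267 lower (6.97%), and 767 of all 5242 tested (14.6%). There, by the brightest probe of each gene, 3 of the 11 measured class II genes were called higher and 0 lower, and BOLA-DQA5 was called as a bound. BOLA-DQA1, 1 of the 3, has another probe that was called lower. Their median change was 0.27, against 0.04 for all genes. On edge rows without day 0 replicate 4, the count was 2 of 9 measured with BOLA-DQA5 besides, and the median 0.33. These members are the ones known to move from earlier results of the same arrays, so the counts describe them and support nothing.

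BOLA-DQA1, a DQ alpha chain, is measured on edge rows by a probe at row 515. Its log2 level was -1.16, -1.14, -1.05 and -1.37 on the day 0 arrays and 0.83, 0.74, 0.73 and 0.81 on the probiotic arrays. The groups did not overlap, which was a condition for naming the gene. The change was 1.96 ± 0.13 (SE; adjusted p = 0.000514), or 3.88-fold. It was 1.88 ± 0.07 without day 0 replicate 4. Another probe for the same gene, at row 16 and also at an even position, went the other way. On the scale of even positions it read 1.41, 1.56 and 1.29 on day 0 replicates 1 to 3 and -1.23, -1.21, -1.27 and -1.43 on the probiotic arrays, a change of -2.71 ± 0.08 (adjusted p = 2.23e-07). At that scale the probe at row 515 changed by 1.82 ± 0.05. The symbol BOLA-DQA1 therefore has no single direction in these data. Of 446 genes with at least 2 measured probes at even positions, it was 1 of 2 with probes called both ways, the other being MGC126945. Of the 446, 54 had any call, and 8 had at least 2 calls the same way.

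BOLA-DQA5, a further DQ alpha gene, had a probe at row 495 that was not well above background on any day 0 array and was so on every probiotic array, where its level was 1.05, 1.04, 0.99 and 1.19. Against the lowest signal well above background on each day 0 array, it was at least 60.5-fold higher at day 60. Without day 0 replicate 4, whose lowest such signal lay highest, it was at least 92.6-fold higher. The day 0 values in these bounds are not measured levels of this probe, so no p-value is given. This was the largest bound on a rise on edge rows.

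BOLA-DQB1, the partner beta chain, had levels of 1.95, 1.84, 1.87 and 1.03 at day 0 and 3.09, 3.05, 3.06 and 3.23 at day 60. Day 0 replicate 4 was the lowest, and no probiotic array overlapped a day 0 array, again a condition for naming. The change was 1.43 ± 0.22 (adjusted p = 0.0097) and 1.21 ± 0.09 without that array. CD74, the invariant chain, had its probe at row 390 in a side column, an even position though not an edge row. Over the whole array it read 0.13, 0.11, 0.23 and 0.29 at day 0 and 1.69, 1.71, 1.67 and 1.91 at day 60, a change of 1.56 ± 0.16 (adjusted p = 0.00149). Day 0 replicate 4 did not stand apart for CD74. The 60-base probes behind these 2 rises are given here, as deposited with the arrays, because each is the one probe of its gene at an even position, together with the probes of 2 of the largest falls.
BOLA-DQB1: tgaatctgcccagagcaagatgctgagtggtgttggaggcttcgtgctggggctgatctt
CD74: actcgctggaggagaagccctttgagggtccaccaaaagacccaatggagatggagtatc
OC90: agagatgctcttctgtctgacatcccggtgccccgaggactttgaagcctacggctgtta
KRT35: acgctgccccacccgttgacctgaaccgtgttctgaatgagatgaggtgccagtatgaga

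The rest of the class II genes had smaller log2 differences. At even positions these were 0.27 ± 0.06 for BOLA-DQB, 0.22 ± 0.05 for BOLA-DRB3 (the main DR beta chain), 0.47 ± 0.11 for BOLA-DOB and -0.67 ± 0.06 for BOLA-DOA, both of which restrain peptide loading, and -0.15 ± 0.05 for BOLA-DMB, which promotes it. None reached a 2-fold change. The lysosomal proteases and reductase that cut antigen and the invariant chain did not reach it either, with -0.03 ± 0.06 for CTSS, 0.32 ± 0.05 for LGMN and -0.33 ± 0.05 for IFI30. The probes for BOLA-DRA, the DR alpha chain, lay where the index was at most 0.40 and were not used. Class I genes gave 0 calls among 8 measured on edge rows without day 0 replicate 4, with a median of 0.03.

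**Figure D3:**
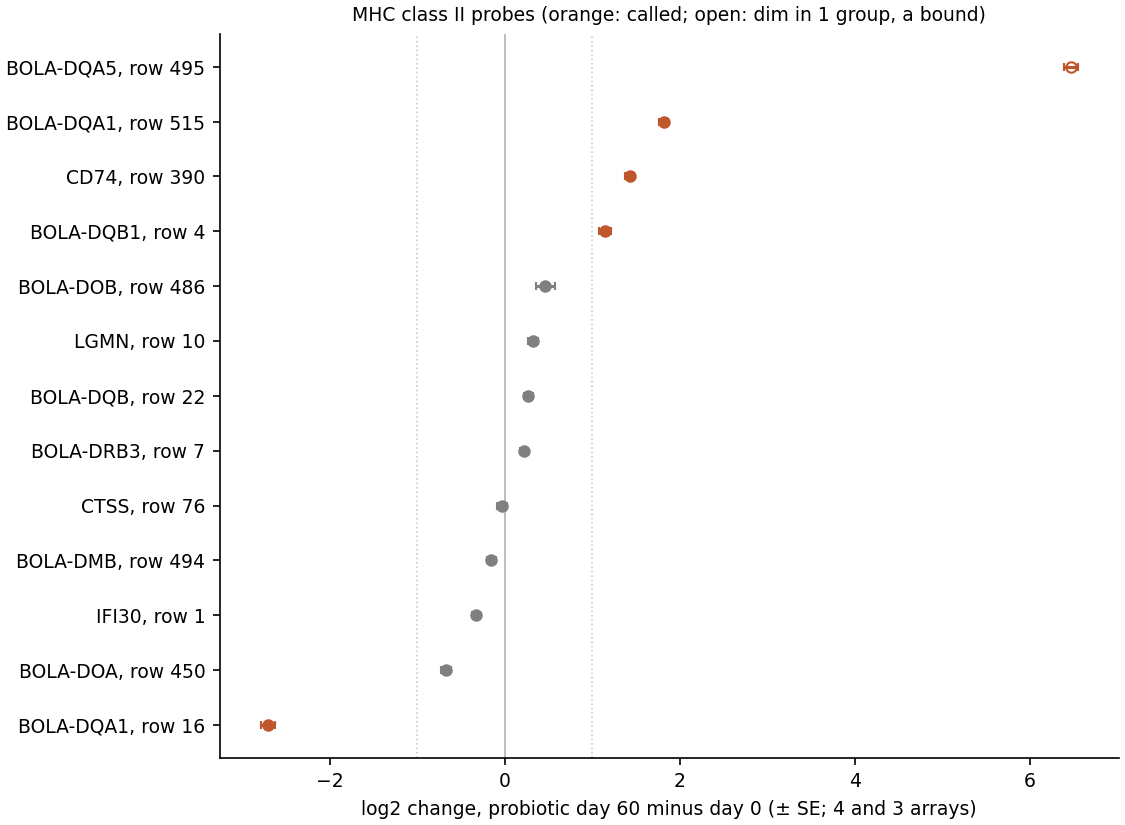
Log2 change, probiotic day 60 minus day 0, with its SE, for each MHC class II probe measured at an even position, over 4 probiotic arrays and day 0 replicates 1 to 3. Labels give the array row, dotted lines the 2-fold threshold. BOLA-DQA5, BOLA-DQA1 at row 515, CD74 and BOLA-DQB1 lie above it, BOLA-DQA1 at row 16 lies at -2.71, and the rest lie within it.

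Immediate early genes were sparse among usable probes. FOS, a subunit of the AP-1 transcription factor, read -4.14, -4.08 and -4.30 on day 0 replicates 1 to 3, was not well above background on day 0 replicate 4, and read -0.97, -1.01, -0.97 and -1.04 on the probiotic arrays. It rose by 3.17 ± 0.07 without day 0 replicate 4 (adjusted p = 2.99e-07), or 8.99-fold, the largest measured rise on edge rows. DUSP1, which encodes a phosphatase acting on MAP kinases, lies at row 479, just outside the edge rows. Its level over the whole array was -2.06, -2.16, -1.90 and -0.77 at day 0 and 0.00, -0.01, -0.06 and 0.22 at day 60, and it rose by 1.76 ± 0.32 (adjusted p = 0.014). At even positions FOSB, a relative of FOS, fell by 1.46 ± 0.13, so the family did not move one way. KLF6 was measured and not called (0.37). GRO1, a neutrophil-attracting chemokine, was not well above background on any day 0 array, read -3.64, -3.76, -3.74 and -3.64 at day 60, and was not called (adjusted p = 0.192).

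Several other genes rose on edge rows on all 8 arrays, each at an even position. ALOX15, a lipoxygenase that is abundant in eosinophils, read -0.52, -0.40, -0.39 and -1.57 at day 0 and 1.02, 1.06, 1.08 and 1.12 at day 60, a change of 1.79 ± 0.28, or 3.47-fold, that was 2.82-fold without day 0 replicate 4. LENG8 read -1.55, -1.51, -1.46 and -0.93 against 0.32, 0.33, 0.39 and 0.37, a change of 1.71 ± 0.17. SLAMF6, a receptor of lymphocytes, read -2.15, -2.24, -2.19 and -2.78 against -1.11, -1.10, -1.13 and -1.01. Its change was 1.25 ± 0.17, and its other probe at an even position gave 0.98 ± 0.05. In all of these the probiotic arrays lay within a narrow range and day 0 replicate 4 lay farthest from its group. CREBZF, a transcription factor of the bZIP family, had 3 probes at even positions that gave 1.05 ± 0.06, 1.08 ± 0.12 and 1.02 ± 0.07. LGALS4, a galectin, changed by 1.24 ± 0.13. FAS, a death receptor, changed by 1.08 ± 0.23, but by 0.98 ± 0.21 on the scale of even positions, where it was not called. ZC3H7A, FGD2, PBXIP1 and LOC513055 completed the 12 largest. PBXIP1 has 2 other probes at even positions, and these gave 0.20 ± 0.09 and 0.50 ± 0.09, not called, against 1.07 ± 0.06 for the named one. The probe with 0.20 was well above background on only 1 of day 0 replicates 1 to 3, so its change is not a measured one. With the replicate block, 4 of the 24 genes named on edge rows were called: BOLA-DQA1, LOC513055, APOE and CAMK1G.

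Without day 0 replicate 4, FOS led a list that also held VMP1, a membrane protein of autophagy (2.27 ± 0.07), NMRAL1 (2.04 ± 0.07), YIF1B, TMEM88, ZBTB32, MAEA and GRK2. None of these 7 was well above background on day 0 replicate 4. MAEA and GRK2 were not called with that array in the fit (adjusted p = 0.196 and 0.138). NMRAL1 read -2.73, -2.77 and -2.67 on day 0 replicates 1 to 3 and -0.70, -0.69, -0.67 and -0.63 on the probiotic arrays.

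The falls on edge rows included genes that blood is not known for. OC90, otoconin of the inner ear, read -1.53, -1.55 and -1.66 on day 0 replicates 1 to 3 and -5.70, -5.73, -5.72 and -6.01 on the probiotic arrays. It fell by 4.22 ± 0.07 on the log2 scale without day 0 replicate 4 (adjusted p = 5.48e-08), where its probe was not well above background, and by 3.86 ± 0.33 with it. KRT35, a hair keratin, read 0.54, 0.64, 0.48 and 2.46 at day 0 and -1.94, -1.51, -1.99 and -1.34 at day 60. It fell by 2.72 ± 0.46 (adjusted p = 0.0125), and by 2.26 ± 0.19 without day 0 replicate 4, which lay highest. CALD1, the actin-binding caldesmon, fell by 2.02 ± 0.27, and its 2 probes at even positions gave -1.82 ± 0.08 and -2.03 ± 0.12.

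APOE, the lipid carrier that monocytes and macrophages secrete, read 2.74, 2.72, 2.72 and 3.03 at day 0 and 0.94, 0.73, 1.09 and 0.57 at day 60 by a probe at row 46. It fell by 1.97 ± 0.17 (adjusted p = 0.000979), while its other probe, at row 517, gave -0.67 ± 0.15, under the 2-fold threshold. CAMK1G, a calcium/calmodulin-dependent kinase, read 5.62, 5.57, 5.62 and 5.93 against 3.81, 3.85, 3.88 and 3.85, and fell by 1.84 ± 0.14 (adjusted p = 0.000699). NOS2, the inducible nitric oxide synthase, fell by 2.74 ± 0.18 without day 0 replicate 4. FA2H, a fatty acid hydroxylase, fell by 2.45 ± 0.07, SPON2, an extracellular matrix protein, by 2.23 ± 0.06, and CPT1A, which admits fatty acids to mitochondria, by 2.54 ± 0.07 at an index of 0.77.

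Other falls lay at uneven positions even on edge rows. CD4, the helper T cell coreceptor, read 2.10, 2.09, 2.04 and 3.46 at day 0 and 0.98, 0.77, 0.61 and 0.04 at day 60, a fall of 1.82 ± 0.37, at an index of 0.47. KPNA1, DEGS2 and POLD4 lay at 0.33, 0.48 and 0.36, and CSNK1A1, DDX3X and MRPL23 at 0.47, 0.44 and 0.31. POLD4, a subunit of DNA polymerase delta, has another probe at an even position that gave 0.42 ± 0.09, against -1.67 ± 0.29 at the uneven one. Of the 12 largest falls on edge rows, 7 were at even positions with all 8 arrays and 8 without day 0 replicate 4, against all 12 of the rises in each case.

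**Figure D4:**
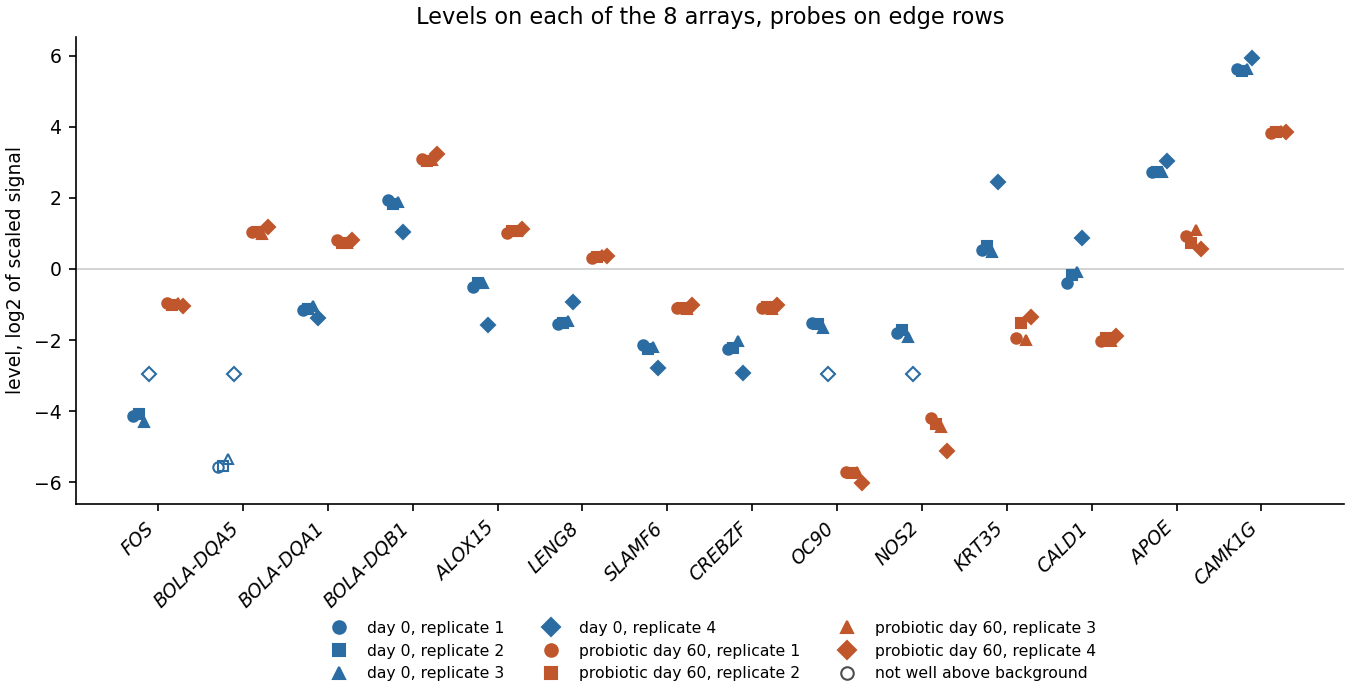
Log2 level on each of the 8 arrays for 14 genes with probes on edge rows, blue for day 0 and orange for probiotic day 60, 1 marker shape per replicate, open where the probe was not well above background (drawn at the array's lowest signal well above background where the probe itself was dimmer). The groups do not overlap for any gene drawn, a condition on which most of these genes were chosen. Of the genes measured on all 8 arrays on edge rows, 47.5% had groups that did not overlap. Day 0 replicate 4 (blue diamond) is the day 0 array that lies apart in most of the genes drawn.

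Probes of 1 gene varied in how well they matched. At even positions the 2 brightest probes of a gene had a Pearson correlation of 0.45 over 446 genes and a median absolute difference of 0.28 log2 units. Where the index was under 0.5, these were 0.05 over 26 genes and 1.32. The correlation is across genes, which share the arrays.

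Gene lists are given on edge rows without day 0 replicate 4, by counts and medians. Their median change is to be read beside 0.06 over all 3006 measured genes. The background there was 9.45% of measured genes called. No call was made in either direction among 8 Toll-like receptor genes (median -0.07), 5 NF-kB genes (0.14), 2 cytokines and chemokines (0.67), 5 interferon-stimulated genes (0.44) and 13 heat shock genes (0.05). NFKBIA, the inhibitor that NF-kB itself induces, had a log2 difference of 0.68 ± 0.10, IL1B 0.90 ± 0.10 and HSPA1A 0.46 ± 0.08, all under the 2-fold threshold. Over all spots without day 0 replicate 4, uneven positions included, 3 of 12 interferon-stimulated genes were called higher. Of all 5576 genes measured there, 191 were. At even positions 1 of 8 interferon-stimulated genes was called higher, against 2.53% of all measured genes. The antiviral gene OAS1Y rose there by 1.18 ± 0.04. DEFB7, a beta-defensin, fell by 1.15 ± 0.14 with all 8 arrays.

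Genes of protein synthesis lay mostly below 0. Of 26 measured genes of the large ribosomal subunit, 25 had a change below 0, with a median of -0.53, and RPL31 and RPL39 were called lower. Of 11 of the small subunit, 10 did, with a median of -0.52 and 0 calls. Bright probes as a whole lay low as well. Over 40 other genes with a mean log2 level of at least 4, the median change was -0.43, with 0 called higher and 5 lower. Oxidative phosphorylation had 0 calls among 24 measured (median -0.06), the proteasome 1 of 12 lower (PSMA4), translation factors 1 of 17 lower (EIF3A) and splicing factors 1 of 21 lower (U2AF1).

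Among 14 measured lipid genes, ALOX15 was called higher and CPT1A, APOE and ABCG1, a cholesterol exporter, lower, with -1.66 ± 0.09 for ABCG1. The other 10 were not called and the list's median was 0.48. FASN, the fatty acid synthase, had a difference of 0.65 ± 0.06. Of 5 cell cycle genes, CDKN1A, the p21 inhibitor, fell by 1.32 ± 0.16. At even positions 2 of 6 measured Wnt genes were called lower and 2 lay above 0. WNT4 fell by 2.22 ± 0.17 and TCF7L1 by 1.56 ± 0.10. The median of the 6 was -0.29, against 0.04 for all genes, of which 6.97% were called lower.

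Markers of single cell types moved in both directions. CXCR1, a chemokine receptor of neutrophils, rose by 1.20 ± 0.10, while the difference was 0.87 ± 0.10 for CXCR2 and 0.55 ± 0.06 for CSF3R, under the threshold. The summed neutrophil signal (scaled, not log) was 14.2 to 15.1 on day 0 replicates 1 to 3 and 16.4 to 17.3 on the probiotic arrays over 6 members on edge rows, but 47.6 to 49.3 and 39.3 to 40.3 over 8 members at even positions, where S100A12 was included. The sum on edge rows included NCF4 and PADI4, which were not well above background on all 7 arrays. The T cell sum was 14.6 to 15.2 at day 0 and 6.90 to 8.67 at day 60 over 8 members on edge rows with CD4 at its uneven position, and overlapped over 11 members at even positions (14.6 to 14.7 against 14.4 to 15.1). CD3E and CD247 there had differences of -0.13 ± 0.06 and 0.04 ± 0.06, and IL7R fell by 1.01 ± 0.06. The monocyte sums overlapped in both (20.4 to 21.8 against 20.8 to 25.0 on edge rows). On edge rows 4 of 6 measured monocyte markers lay above 0, among them CX3CR1 (0.44 ± 0.07), SIRPA (0.28 ± 0.09) and CSF1R (0.16 ± 0.10), and CD14 fell by 1.02 ± 0.18 at even positions.

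CD79A and MS4A1 of B cells, which carry much of the class II in blood, had differences of 0.06 ± 0.05 and 0.14 ± 0.05 at even positions. CD37, a tetraspanin abundant on B cells, was called higher on edge rows with all 8 arrays (1.04 ± 0.22). Without day 0 replicate 4 its difference was 0.81 ± 0.06, under the threshold, and its 2 probes at even positions gave 0.75 and 0.87. EBF1, a transcription factor of early B cells, had 0.68 ± 0.29 by a probe at an index of 0.71 and -0.49 ± 0.06 by one at an even position. PAX5, the B cell transcription factor, fell by 1.46 ± 0.19 on edge rows. The median of the B cell list was 0.22 on edge rows and 0.10 at even positions. The B cell sum was 12.8 to 13.1 at day 0 and 13.7 to 14.5 at day 60 at even positions. These values stand beside the class II rises, and their part in them was not tested. The erythroid sum on edge rows, of HBB and AHSP, was 19.7 to 21.0 at day 0 and 27.2 to 34.0 at day 60. The pair differed in sign: AHSP, the chaperone of alpha haemoglobin, had a difference of -0.86 ± 0.19 and HBB 0.55 ± 0.09, with a list median of -0.16. The sum of the 2 eosinophil and basophil genes was 1.97 to 2.14 against 5.35 to 6.33, and rests on ALOX15, with CEBPE at 0.59. Of 2 platelet genes, THBS1 fell by 1.20 ± 0.12. Of 34 genes of other tissues, KRT8 was the only one measured on edge rows, at -0.12.

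**Figure D5:**
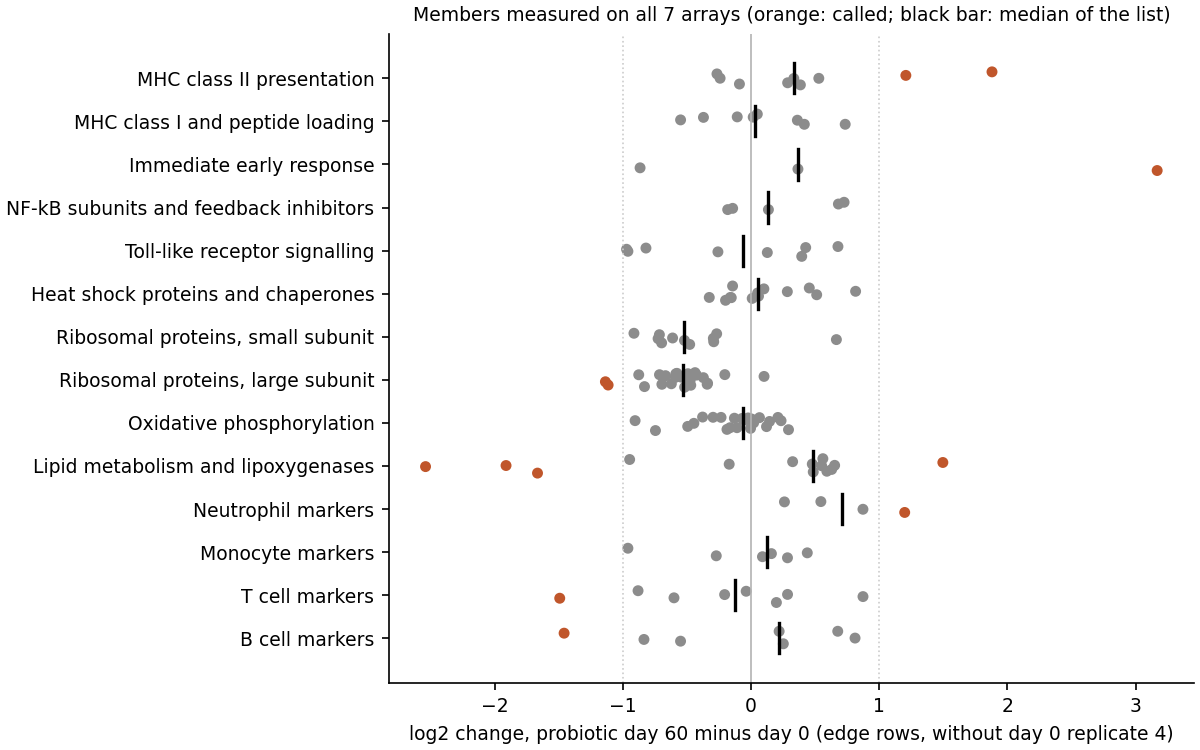
Log2 change, probiotic day 60 minus day 0, of the members of 14 gene lists measured on all 7 arrays (edge rows, without day 0 replicate 4), 1 point per gene with random vertical offset, orange where called, black bars at list medians. The class II median lies at 0.33 and those of the ribosomal subunits at -0.52 and -0.53. Some lists hold called genes and others hold none.

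The same blood at day 60 with 100 ng/ml of lipopolysaccharide (LPS) added was hybridised on 4 further arrays, and its replicates 1 to 3 correlated with the probiotic arrays at 0.947 to 0.990. Replicate 4 had 0.510 to 0.554 on the same probes, which were chosen without regard to the LPS arrays, and was left out for that reason. The other 3 LPS arrays are set beside the same day 0 arrays, so the 2 contrasts share controls and are given side by side only. FOS had log2 levels of 0.54, 0.38 and 0.42 with LPS, against a highest level of -0.97 without it and a mean of -4.18 on day 0 replicates 1 to 3. BOLA-DQA1 at row 515 had 0.46, 0.31 and 0.35, against means of 0.78 and -1.12. BOLA-DQB1 had 3.02, 2.79 and 2.87, against 3.11 and 1.89. ALOX15 had 0.99, 0.87 and 0.99, against 1.07 and -0.44. OC90 had -5.57, -6.18 and -6.23, against -5.79 and -1.58, and APOE 1.21, 0.70 and 0.77, against 0.83 and 2.73. Of these 6 genes, FOS was the one whose LPS levels lay beyond the probiotic levels on the side away from day 0 on all 3 arrays. The 6 do not stand for all named genes. LOC513055, outside them, had 1.35, 1.15 and 1.25 with LPS, against means of 0.67 and -1.02.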

How the data were processed

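Labelled cRNA of 16 blood RNA samples was read on 1-colour Agilent bovine arrays, and 8 were compared here. Per the submitters' processing notes, the authors extracted intensities with Agilent Feature Extraction 10.10.1.1. The deposited scanner files hold background-subtracted intensities with no scaling between arrays. The authors also deposited a table of log2 values, 1 per probe and group, with unstated centring, used only as an alternative. The software's multiplicative detrending of day 0 replicates 2 to 4 was avoided by taking the signal before it. Each array was divided by its 75th percentile over probes well above background on all arrays of the fit. Signals below the array's lowest signal well above background were set to that floor. Probes had to be well above background on all 4 arrays of a group. Control spots (1417) and outlier spots were left out, and no spot was saturated. The brightest probe stood for a gene. The test was limma's (version 3.58.1, R 4.3.3; lmFit, then eBayes), two-sided, with Benjamini-Hochberg adjustment over all genes tested. Calls required an adjusted p below 0.05 and at least a 2-fold change. Calls whose direction only the floor set (178 over all spots) carry no fold. The number of arrays limits the precision. On simulated data for edge rows with 8 arrays, 90 of 90 genes changed 2-fold were found at the adjusted p. Of these, 42 also met the fold threshold and were called, and 0 unchanged genes were called. The simulation had 3055 measured genes, against 1304 on edge rows of the real 8 arrays. It therefore did not match the real arrays, and its recovery and lack of false calls cannot be carried over to them.

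Genes were named by accession for 26903 probes, by current symbol for 6525, by an older symbol for 131 and by the file's symbol for 1387, and 8707 were unnamed. RefSeq names came with ARS-UCD2.0, and no positions are given. The arrays of each group were labelled with replicate numbers 1 to 4. Same-numbered arrays deviated together on edge rows (correlations 0.128, 0.131, 0.155 and 0.208), although replicates 1 and 2 correlated better with another number (0.256 and 0.290), but not over all spots (-0.116 to 0.153), so the replicate block is printed beside the edge-row counts. Named genes are the 12 largest measured rises and falls, the 6 largest bounds each way, called or defining members of the lists, and BOLA-DQA5, FOS, DUSP1 and GRO1. Genes, lists and tests were chosen with earlier results of these data known. Members in lists outside that rule, and the even positions, were picked after their values were seen. Figures were drawn with matplotlib 3.10.9. Results of 2 genes that meet the rule for named genes are not reported here.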

Additional observations from a re-analysis of the deposited data

Results flagged for a closer look

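In each flagged result, day 0 replicate 4 lay apart from the other 3 day 0 arrays, with a gap over the group's range above Dixon's critical value. Of 24 groups of gene levels, 7 passed it, and chance passes about 1 in 20. The share of edge-row spots well above background had a gap of 0.888, with that array lowest. It was lowest for the levels of BOLA-DQB1 (0.882), ALOX15 (0.893) and SLAMF6 (0.848). It was highest for LENG8 (0.867), KRT35 (0.92), APOE (0.943) and CAMK1G (0.844). Being called without that array was a condition for naming these 7 genes, so it carries no weight here.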

How the results depend on the processing

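Counts over all spots are given as genes called, higher, lower, and called among those measured on all 8 arrays, against 684, 116, 568 and 223. Scaling on all probes gave 1256, 193 and 1063. Cyclic loess gave 318, 70, 248 and 82. Quantile normalization gave 582 higher, scaling within 10 row bands 182 and normexp 49. The processed signal gave 3513, 1899, 1614 and 1015, and a floor of 1 scanner unit 1353 called and 847 higher. Probes well above background on all 8 arrays gave 305, 45 and 260, and no filter 16704, 189 and 16515. Edge rows gave 225, 57, 168 and 110, rows within 27 of an edge 209, 27, 182 and 63, the other rows 71 higher and 100 measured, and even positions 67 higher. All 16 arrays in 1 fit gave 349, 59, 290 and 63, and array weights 1682, 578 and 1104. The replicate block gave 311, 35, 276 and 76. The authors' deposited table gave 5773 called, 5199 higher and 1249 measured, at a fold of 2 with no test. The share of calls that were higher was 17.0%, and moved to 58.6% with quantile normalization, 54.1% with the processed signal, 62.6% with the floor of 1 unit, 34.4% with array weights, 6.12% with normexp and 1.13% with no filter. Leaving out 1 array gave 310 to 1785 called, 47 to 383 higher, 259 to 1402 lower and 84 to 720 measured, each highest without day 0 replicate 4. Without that array aside, the highest were 572, 195, 485 and 174. On edge rows (225 called, 110 measured), leaving out 1 array gave 81 to 569 and 46 to 284, again highest without day 0 replicate 4 (otherwise at most 152 and 79). The replicate block on edge rows gave 22 and 10, the processed signal 756 and 250, quantile normalization 345 called, and rows within 27 of an edge 63 measured. The cause of these differences was not tested. The mean of a gene's probes turned BOLA-DQA1 to -0.12 and NMRAL1 to -0.30. The processed signal turned CALD1 to 0.16 and EFNB3 to 0.33. POLD4 turned to 0.23 on rows within 27 of an edge (in both the edge-row and the all-spot fit), 0.23 at even edge positions and 0.21 at even positions, and PTPN7 to 0.56 on inner rows, since another probe stood for the gene. The authors' deposited table gave the opposite sign for 18 of 42 named genes: ALOX15 -0.31, LOC513055 -0.70, CREBZF -0.12, FGD2 -1.31, PBXIP1 -1.41, KRT35 1.93, LRRC4B 4.91, KPNA1 0.71, CAMK1G 0.45, PTPN7 0.63, EFNB3 5.43, OC90 4.59, NOS2 4.48, CPT1A 0.21, FA2H 4.04, C7H19orf80 5.60, SPON2 5.53 and FAM155B 5.88. Apart from these 27 values, the 42 named genes kept their direction wherever they were called on edge rows with 8 arrays or in the alternative. Changes of direction where a gene was called in neither were not counted. Low signal over background on day 0 limits the measured genes.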
